A study of Nothobranchius furzeri with 20 samples.

Results

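The 60 genes described here had nearly the same mean level in the brains of young and old killifish given the solvent. This held in young fish given rotenone too. In old fish given rotenone they stood at another level than in old fish given the solvent. They come from RNA sequencing of brain tissue of male killifish of the species Nothobranchius furzeri, from the strain MZM-04/10p, in 20 libraries, 5 in each of 4 groups: 9 weeks with DMSO, 9 weeks with Rotenone 1% LC50 (a dose set as a share of the concentration that kills the median fish), 27 weeks with DMSO, and 27 weeks with rotenone at that dose. The labels do not say how long fish were treated, nor that each library came from a separate fish, so errors and p-values cover the spread between these libraries. Totals ran from 19433958 to 24159773 counts per library, and the ranges of the 4 groups overlapped.

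Genes were chosen from their CPM (the count of a gene scaled to the library's total) on the scale log2(CPM + 1), called the log level below. Of 26739 genes, 14271 had a mean of at least 5 CPM. In 690 of these, 4.83%, the 5 rotenone libraries and the 5 DMSO libraries of 27 weeks did not overlap. In 440 of the 690, the mean log level of DMSO fish at 27 weeks also lay within 0.2 of that at 9 weeks, and in 398 of those the 9-week rotenone mean did so too. The 60 with the largest difference between rotenone and DMSO at 27 weeks were taken, 22 with a higher and 38 with a lower level in rotenone fish. All 20 libraries entered this choice, so the differences between the 4 group means are descriptions of the genes chosen and not findings, and no test of them is given for single genes.

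Rotenone blocks complex I, the enzyme through which electrons from NADH enter the mitochondrial respiratory chain. Neurons depend heavily on respiration, and rotenone is used in animals to model the loss of dopamine neurons seen in Parkinson's disease. The turquoise killifish is a short-lived annual fish in which brain ageing can be followed within months. The files give genes by identifiers only, and the RefSeq gene table used here matched 0 of them. No function can therefore be given for any of the 60 genes, the brain label could not be checked against marker genes, and identifiers are printed for 4 genes only, the 2 farthest above and the 2 farthest below DMSO.

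Nfu_g_1_010257 was the gene farthest above DMSO in old rotenone fish. Its level in these 5 libraries was 30.3, 30.9, 26.09, 31.7 and 30.9 CPM, against 13.5, 14.3, 11.7, 14.5 and 14.6 CPM in DMSO fish of the same age. At 9 weeks it stood at 13.1, 12.2, 14.4, 11.5 and 15.1 CPM with DMSO and at 10.5, 8.64, 14.4, 17.1 and 15.9 CPM with rotenone. Every library of old rotenone fish therefore lay above all 15 others, and the other 3 groups overlapped one another. The mean level was 2.18-fold that of DMSO at 27 weeks, 30.0 ± 2.23 against 13.7 ± 1.20 CPM (SD, n = 5 each), a log level difference of 1.07. It was the 1 member with a difference of means past 2-fold. The next largest difference among the higher members was 0.54.

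That next gene was Nfu_g_1_015839, a low-level transcript with 49 to 220 counts per library. It stood at 10.4, 6.28, 7.77, 6.18 and 6.26 CPM in old rotenone fish and at 4.35, 4.01, 5.28, 4.32 and 5.47 CPM in old DMSO fish. At 9 weeks its levels were 4.88, 4.02, 4.64, 2.22 and 5.53 CPM with DMSO and 3.95, 4.85, 5.34, 4.89 and 4.99 CPM with rotenone. Old rotenone fish again lay above all 15 other libraries, but by a narrow margin, with 6.18 CPM as their lowest value and 5.53 CPM as the highest of the others. The means at 27 weeks were 7.38 ± 1.81 and 4.68 ± 0.646 CPM (SD, n = 5 each), a ratio of 1.57.

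**Figure D1:**
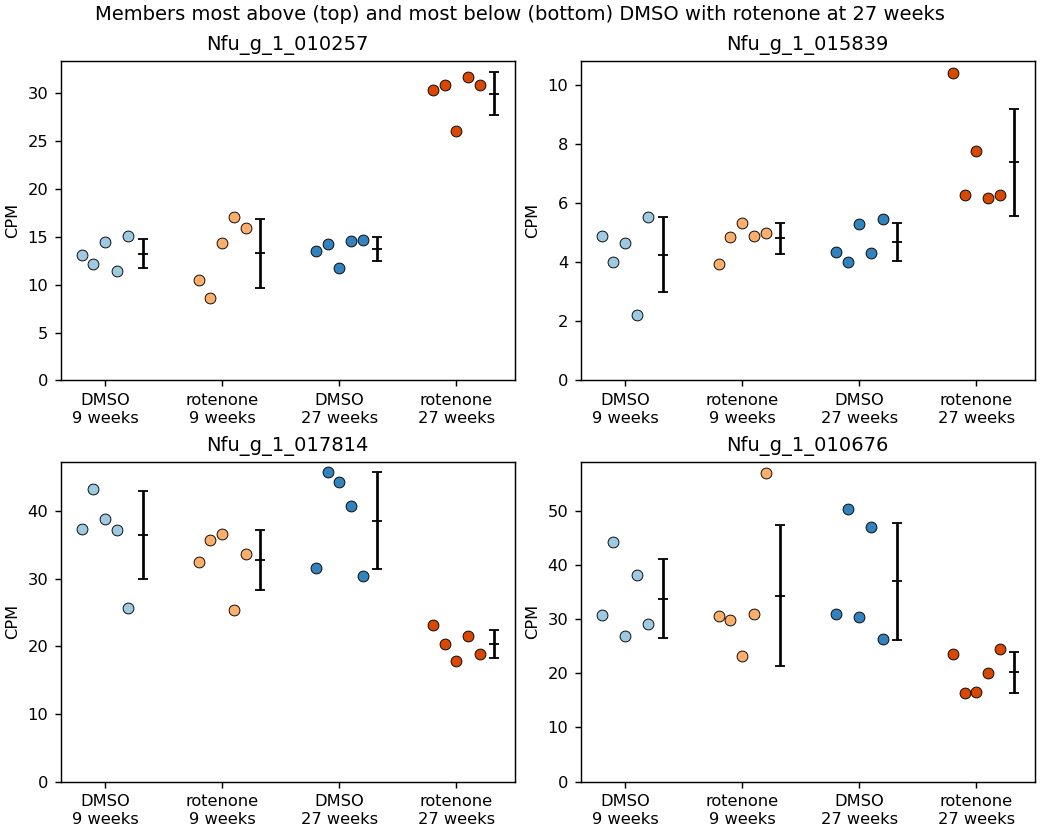
Level in CPM of the 4 genes in each library (points, replicates 1 to 5 from left to right) with the mean and SD of each group of 5 at the right of the points. In Nfu_g_1_010257 the rotenone libraries of 27 weeks stand between 26.09 and 31.7 CPM and all others at 17.1 CPM or less, while in Nfu_g_1_010676 the 27-week rotenone values overlap a 9-week rotenone library.

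Nfu_g_1_017814 was the gene farthest below DMSO. Old rotenone fish had 23.2, 20.4, 17.9, 21.4 and 18.9 CPM, and old DMSO fish 31.6, 45.8, 44.2, 40.7 and 30.4 CPM. Young fish had 37.3, 43.3, 38.8, 37.2 and 25.6 CPM with DMSO and 32.5, 35.7, 36.5, 25.4 and 33.6 CPM with rotenone. All 5 libraries of old rotenone fish were below the other 15, although replicate 5 of young DMSO and replicate 4 of young rotenone fish came within a few CPM of them. The means at 27 weeks were 20.3 ± 2.10 with rotenone and 38.5 ± 7.14 CPM with DMSO (SD, n = 5 each), a log level difference of -0.87.

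Nfu_g_1_010676, the next lower member, varied widely within groups. It had 23.5, 16.4, 16.6, 20.0 and 24.5 CPM in old rotenone and 30.9, 50.4, 30.3, 46.9 and 26.4 CPM in old DMSO fish, a log level difference of -0.81. At 9 weeks it had 30.7, 44.2, 26.8, 38.1 and 29.0 CPM with DMSO and 30.5, 29.8, 23.2, 31.0 and 56.9 CPM with rotenone. The gap at 27 weeks was under 2 CPM, from 24.5 to 26.4 CPM, and replicate 3 of young rotenone fish lay inside the range of old rotenone fish.

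For most of the 60 genes the difference at 27 weeks was small. The 22 higher members differed by 0.35 to 1.07 in log level, with a median of 0.40, which corresponds to 1.32-fold. The 38 lower members differed by -0.87 to -0.35, with a median of -0.46 and a fold of 1.37. In mean CPM, 2 higher and 11 lower members passed 1.5-fold. The member with the smallest difference stood at 0.346 and the first gene left out at -0.343, so the 60 genes run on without a break into the other 338 that met every criterion. Over all genes with at least 5 CPM the median difference at 27 weeks was -0.02.

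The other contrasts were held near 0 by the choice. Between 9 and 27 weeks in DMSO fish the log level of the 60 genes differed by -0.17 to 0.20, and between rotenone and DMSO at 9 weeks by -0.19 to 0.18. Among genes at least as far apart at 27 weeks, those nearest outside these limits differed by 0.207 with age and by 0.201 with rotenone at 9 weeks. Between 9 and 27 weeks in rotenone fish, a difference that follows from the others, the higher members had a median of 0.42, with a range from 0.06 to 1.15. The lower members had a median of -0.41, with a range from -0.75 to -0.15. At the ends nearest 0, old and young rotenone fish thus differed by less than the 0.2 allowed in the other contrasts.

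**Figure D2:**
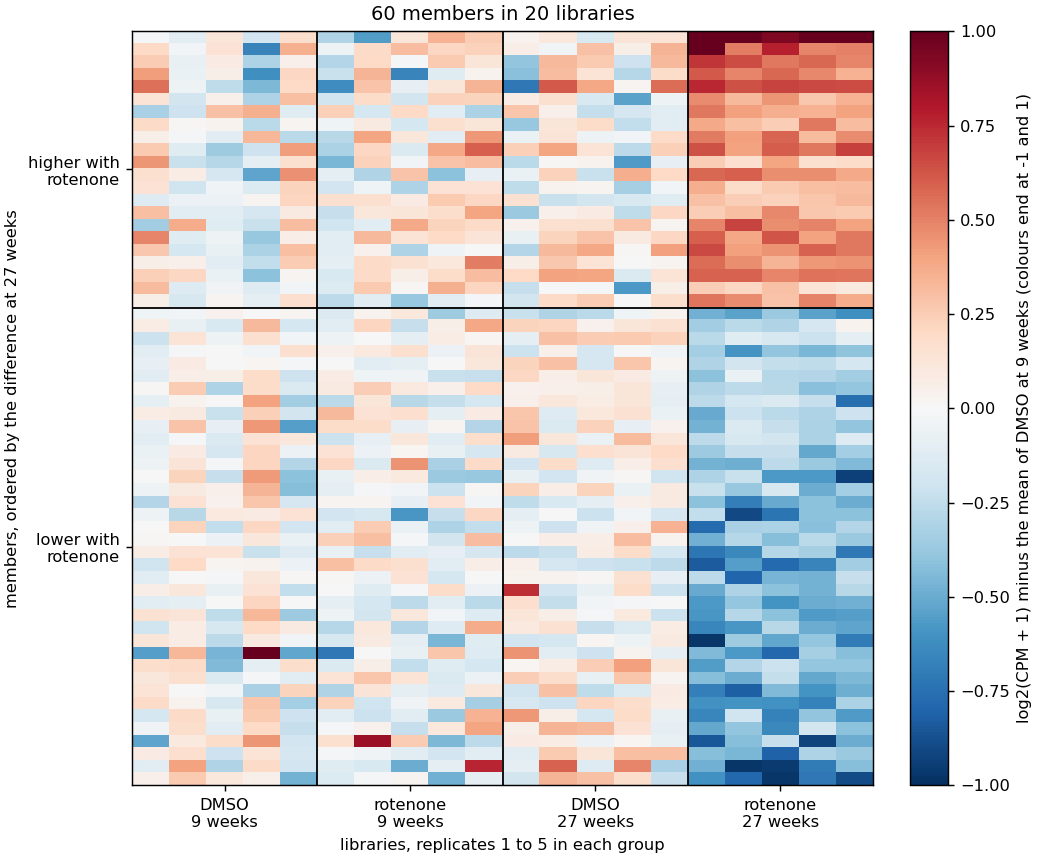
Log level of the 60 genes (rows, from the highest to the lowest difference at 27 weeks) in the 20 libraries (columns), less the mean of DMSO at 9 weeks, with red above and blue below it. The 27-week rotenone block differs from the 27-week DMSO block by the choice of genes. In some rows it lies close to the 9-week rotenone block, and rows within the other 3 blocks hold single libraries with deviations as large.

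How far single 9-week libraries departed from their group means was not used in the choice. In 24 of the 60 genes, 9 higher and 15 lower, the old rotenone libraries lay outside all 15 others. This was so for 2.54% of all genes with at least 5 CPM, and since it includes the gap at 27 weeks that the choice required, the member count is read against the genes with that gap. Of the 690 genes without overlap at 27 weeks, 52.5% had all 5 rotenone libraries outside the other 15, against 40.0% of the members and 47.2% of the 398 genes from which they were taken. The 690 include genes outside the limits set on the young means, and the 398 do not. The 60 genes thus stood clear of the young libraries no more often than the 398 as a whole.

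In the remaining members, 1 or more 9-week libraries reached into the range of old rotenone fish. A 9-week value was counted as shifted when it lay past the midpoint between the 2 group means of 27 weeks, towards rotenone. Of all 9-week values of the 60 genes, 21.3% were shifted, 20.9% for higher and 21.6% for lower members. In 11 genes none of the 10 young libraries was shifted, and in 20 genes at least 3 were, up to 6.

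The shifted values were unevenly spread over the young libraries. Replicate 4 of rotenone had 23 of 60 genes past the midpoint and replicate 5 of DMSO 22, whereas replicate 2 of DMSO had 2 and replicate 4 of DMSO had 4. The other young libraries had 9 to 18. Among old DMSO libraries the number was 1 to 10, and among old rotenone libraries 57 to 60, both limited by the choice of genes.

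Averaged over the genes, no young library reached the level of old rotenone fish. The choice held the young group means near that of old DMSO fish, so this is in part built in. The 22 higher members had a mean log level between -0.23 and 0.20 from the mean of young DMSO fish in the 10 young libraries, between -0.13 and 0.18 in old DMSO fish, and between 0.44 and 0.56 in old rotenone fish. The 38 lower members lay between -0.15 and 0.19 in young fish, between -0.01 and 0.11 in old DMSO fish, and between -0.49 and -0.42 in old rotenone fish. Replicate 4 of young DMSO fish was lowest for the higher members, at -0.23, and highest for the lower members, at 0.19. Replicate 5 of young DMSO fish was at 0.16 and -0.15, so both sets leaned the other way in it.

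**Figure D3:**
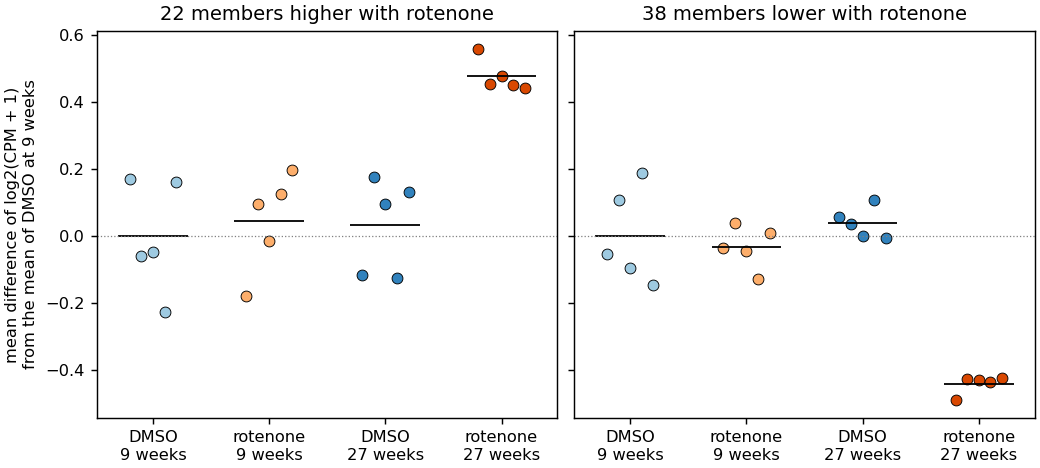
Mean over the 22 higher members (left) and the 38 lower members (right) of the log level less the mean of DMSO at 9 weeks, for each library (points, replicates 1 to 5 from left to right), with group means as lines. Old rotenone libraries lie between 0.44 and 0.56 on the left and between -0.49 and -0.42 on the right, outside all others, as the choice of genes requires on average.

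The members moved together in young fish within groups. After each group's mean was subtracted, the median Pearson correlation over the 10 young libraries was 0.50 between pairs of higher members (231 pairs), 0.27 between pairs of lower members (703 pairs) and -0.22 between a higher and a lower member (836 pairs). Of pairs of higher members, 81.0% had a correlation above 0, and of mixed pairs 30.7%. Genes that differed in the same direction in old rotenone fish were thus mostly high or low in the same young libraries, and genes of opposite direction mostly in different ones.

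To set this beside other genes, each gene was given the sign of its own difference at 27 weeks. The median correlation in young libraries was then 0.264 for the 60 genes, 0.201 for the other 338 that met the criteria and 0.0717 for all genes with at least 5 CPM. Without replicate 4 of young DMSO fish the value for the 60 genes was 0.175, and without any other young library 0.222 to 0.316. At 27 weeks, where the demand for no overlap limits how the genes can vary within groups, the value was 0.0907 for the members, 0.105 for the other 338 and 0.0495 for all genes. By kind of pair, the median at 27 weeks was 0.32 between higher members, with 70.6% of pairs above 0, then 0.03 between lower members and -0.10 between a higher and a lower member. Without replicate 1 of old DMSO fish the pooled value was 0.138 and without replicate 4 it was 0.0521. All pairs share the same libraries, and the correlations are given as a description.

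**Figure D4:**
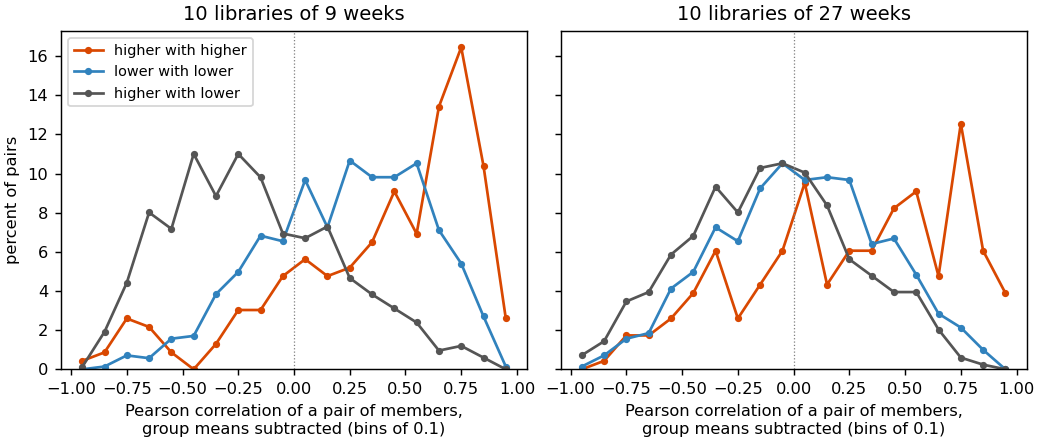
Percent of pairs of members (vertical) by their Pearson correlation within groups in bins of 0.1 (horizontal), over the 10 libraries of 9 weeks (left) and of 27 weeks (right). At 9 weeks pairs of higher members have a median of 0.50, with the fullest bin at 0.7 to 0.8, and mixed pairs a median of -0.22. At 27 weeks the 3 medians lie closer together.

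The members were more variable than other genes in young fish. The median SD of the log level within a group was 0.207 for young DMSO and 0.199 for young rotenone fish, against 0.131 and 0.138 over all genes with at least 5 CPM. In old DMSO fish it was 0.170 against 0.147, and in old rotenone fish 0.110 against 0.103, where wide spread would have led to overlap and exclusion. Higher members varied more than lower ones in young DMSO fish, with 0.253 against 0.190, and less in old rotenone fish, with 0.0978 against 0.138. Genes with fewer counts vary more in log level, and the members had a lower median level, at 17.7 CPM against 30.4 CPM. Per gene length it was 7.75 RPKM (counts scaled to gene length and library total, recomputed with each library's own total) against 11.2 RPKM. The part of level in the spread was not tested.

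Gene length did not set the members apart in its median, at 3152 bases against 3072 bases over all genes with at least 5 CPM. The higher members had a median of 3418 bases, with quartiles at 1063 and 5055 bases, and the lower members one of 2759 bases, with quartiles at 1878 and 3758 bases. Of the members, 13.3% were shorter than 1000 bases, and of all these genes 13.9%.

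How single libraries bore on the choice was seen by leaving them out. Each of the 10 libraries of 27 weeks was left out in turn, the 60 genes were chosen anew from the other 19 libraries, and the left-out library was set against the mean of the other treatment. For 8 of the 10 libraries, its median difference was 0.33 to 0.49 in the direction of the remaining libraries, where those differed by 0.42 to 0.49. In these 8 libraries 56 to 59 of 60 genes lay on their own treatment's side of the other treatment's mean, by any amount. Over all genes with at least 5 CPM, 64.9% to 77.5% did so, but these were not chosen for a gap. Fewer genes lay past the midpoint between the treatments, towards their own, with 44 to 53 of the 60 and 49.9% to 68.0% of all genes. The mean of the other treatment and the direction had both been used to choose the 60 genes, so that part of the difference and of these counts is built in. The value for an unchanged library is not known, and the numbers are no test of the 27-week difference. They serve to set the left-out libraries beside one another.

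The exceptions were replicates 1 and 2 of old DMSO fish. Genes chosen without replicate 1 differed by 0.53 between the remaining groups, but replicate 1 itself lay at -0.06, past the mean of rotenone fish, with 29 of 60 genes on the DMSO side. Genes chosen without replicate 2 differed by 0.61, and replicate 2 lay at 0.05, with 38 of 60 genes on the DMSO side. That side is the DMSO side of the rotenone mean, and over all genes 64.4% and 61.4% were on it. Past the midpoint towards DMSO lay 21 and 12 of the 60 genes, and 54.7% and 44.0% of all genes. Leaving out a 27-week library eases the demand for no overlap. Genes admitted only without a library are those in which that library broke a criterion, such as the lack of overlap. A place of the left-out library near the other treatment in such genes is therefore in part built in. Without 1 of the other 8 libraries, 471 to 575 genes met the criteria, against 398 with all. Without replicates 1 and 2 of old DMSO fish the numbers were 689 and 810. Only 23 and 17 of the 60 genes then taken were among the members, against 44 to 52 for the other 8. Of the 10 libraries left out, these 2 changed most which genes counted as moved by rotenone in old brains alone. Why these libraries differed was not tested.

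**Figure D5:**
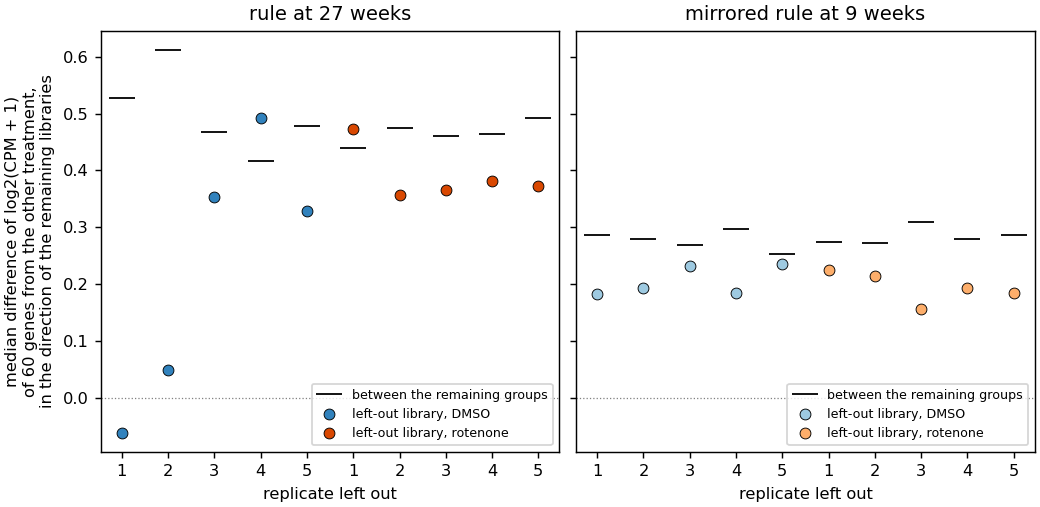
Median difference in log level of 60 genes between a left-out library and the mean of the other treatment (points), in the direction of the remaining libraries, beside the median difference between the remaining groups (dashes), for the choice at 27 weeks (left) and its mirror at 9 weeks (right). Replicates 1 and 2 of DMSO at 27 weeks lie at -0.06 and 0.05, and the other 8 libraries of that age at 0.33 to 0.49.

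The same criteria with the ages exchanged were met by fewer genes. A smaller spread within groups makes a lack of overlap easier to reach, and the groups differed in spread. Over all genes with at least 5 CPM, the median SD of the log level was 0.103 in old rotenone and 0.147 in old DMSO fish. It was 0.138 in young rotenone and 0.131 in young DMSO fish. What part spread had in the numbers of genes was not tested. Rotenone and DMSO libraries of 9 weeks did not overlap in 231 genes, 1.62% of those with at least 5 CPM, and in 107 of these the young DMSO and old rotenone means lay within 0.2 of the old DMSO mean, 29 higher and 78 lower with rotenone. Leaving out any 1 young library raised the number of genes from 107, as it eases the demand for no overlap. The number was 162 to 220 when replicate 1 or 4 of young DMSO fish, or replicate 1, 3, 4 or 5 of young rotenone fish, was left out. It was 145 to 151 without 1 of the other young libraries. Left-out young libraries had a median difference of 0.16 to 0.23, where the remaining groups differed by 0.25 to 0.31. They lay on their own treatment's side of the other treatment's mean in 43 to 58 of 60 genes, against 52.2% to 67.0% over all genes. Past the midpoint lay 28 to 46 of the 60 genes and 40.9% to 58.9% of all genes. The same part of these differences and counts is built in. The lowest of these differences, 0.16, lay above those of replicates 1 and 2 of old DMSO fish. The 60 genes of this mirrored choice, given the sign of their 9-week difference, had a median correlation within groups of 0.0467 in old libraries. No value over all genes was taken with 9-week signs, so this number has no like background and is not set against that of the members.

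The lean towards lower levels depended on the scaling and, among the 60 genes taken, on single libraries. With library totals, 117 of the 398 genes were higher and 281 lower with rotenone, 70.6% lower, close to the 70.7% among all 690 genes without overlap. Over all 14271 genes with at least 5 CPM, 6374 were higher and 7897 lower with rotenone at 27 weeks under this scaling. With TMM scaling, which estimates library factors from the bulk of genes, 396 genes met the criteria, 185 higher and 211 lower, 53.3% lower. The 60 genes then taken were 29 higher and 31 lower, 52 of them among the members. With library totals but without replicate 2 of old DMSO fish, the 60 genes taken were 36 higher and 24 lower, and without replicate 1 they were 30 and 30, where all libraries gave 22 and 38. Of all genes that met the criteria, 64.2% and 67.8% were then lower. With all libraries, the median difference at 27 weeks over all genes with at least 5 CPM was -0.0198 with library totals and -0.00476 with TMM scaling.

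In the edgeR quasi-likelihood test over 19452 genes (all 20 libraries, TMM scaling, Benjamini-Hochberg adjusted p below 0.05), 14 of the 60 genes, 2 higher and 12 lower, were called for rotenone at 27 weeks, where 0.391% of all tested genes were called. The choice used this contrast, so nothing is read from the number. It was 6 to 8 when replicate 4 of old DMSO or replicate 1, 2, 3 or 4 of old rotenone fish was left out. In each of these fits fewer of all tested genes were called too. With DESeq2 it was 39, and 2.56% of the genes it tested were called. Fewer cells of a type and less RNA per cell cannot be told apart in these bulk brain samples.

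The remaining contrasts gave calls as the choice allowed. For age in rotenone fish 43 of the 60 genes were called, 14 higher and 29 lower at 27 weeks, against 31.1% of all genes. For rotenone at 9 weeks edgeR called 0 members and 0.0257% of all genes. DESeq2 also called 0 members, and over all genes 57 higher and 34 lower of 17208. In edgeR 2 members had an unadjusted p below 0.05, against 6.99% of all genes. For age in DMSO edgeR called 0 members and 23.5% of all genes. DESeq2 again called 0 members, and over all genes 2345 higher and 2602 lower of 20698. In edgeR 2 members were below 0.05 unadjusted, against 35.5% of all genes.

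The age difference in rotenone effect, which is what the criteria describe, was called by edgeR for 0 of the 60 genes and 0.0206% of all genes. An unadjusted edgeR p below 0.05 was seen for 42 of the 60 and for 10.0% of all genes, and DESeq2 called 10 members and 0.681% of the genes it tested. The choice used the rotenone difference at both ages, so nothing is read from these numbers. Left out in turn, replicate 1 of old DMSO and replicate 4 of young rotenone fish gave 2 edgeR calls each and replicate 5 of young rotenone fish gave 1, while the other 17 libraries gave 0. Over all genes these fits called 17 higher and 17 lower, 3 higher and 5 lower, and 1 higher and 6 lower, in that order. For Nfu_g_1_010257 the rotenone effect was larger by 1.13 on the log2 scale at 27 weeks than at 9 weeks, the farthest from 0 among the 60 genes, where the values ran from -0.88 to 1.13.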

How the data were processed

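Reads were processed with featureCounts 1.4.6-p4, STAR 2.4.1d and bcl2fastq 1.8.4, per the submitters' processing notes. Not given in the sources used here are the genome build, annotation and strand setting. How reads of overlapping, antisense or near-identical genes were counted is therefore not known. The deposited count table holds raw counts. In the deposited RPKM table the library totals are recycled down the columns: 99.96% of values were recovered within 0.0011 RPKM with recycled totals and 7.22% with own totals. It served for gene lengths only.

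Age and treatment labels gave the groups, and replicate numbers follow accession order and pair nothing. No pair of libraries within a group agreed within sampling noise (chi-square per degree of freedom at least 7.80 over 40 pairs). Members, tests and the rule for printed identifiers (the 2 largest differences each way) were chosen with earlier results of these data known. Counts were tested with edgeR 4.0.16 (filterByExpr, TMM, robust quasi-likelihood fit, 1 mean per group) in R 4.3.3, with DESeq2 1.42.0 as an alternative. The fit and the choice of genes were also run on simulated counts. The outcome of those runs is not given, and no result here rests on it. Other steps used Python 3.11.15. No column of other samples was present. In the smallest library 1 count is 0.0515 CPM. Alternatives were scaling, pseudocount, level minimum, tolerance, filter, libraries fitted and leaving out each library. Leaving out libraries for the correlations, other than replicate 1 of old DMSO fish, was added after seeing the data.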

Additional observations from a re-analysis of the deposited data

Results flagged for a closer look

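In 26 groups of 5 libraries, 16 for printed genes, 8 for member means and 2 for left-out libraries, the farthest library was compared with its nearest neighbour, and in 4 of them the gap exceeded 0.71 of the range. Chance flags about 1 in 20 groups of independent normal values, and these share libraries. Nfu_g_1_010257 stood at 26.09 CPM in replicate 3 of old rotenone fish, with the nearest library at 30.3 CPM. Nfu_g_1_010676 stood at 56.9 CPM in replicate 5 of young rotenone fish, with the nearest at 31.0 CPM. Replicate 1 of old rotenone fish was far from the others in the mean of the lower members, at -0.489 against -0.437. It was also far as a left-out library, at 0.473 against 0.381.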

How the results depend on the processing

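No paired analysis was possible because the labels give no replicate numbers shared between groups. With a tolerance of 0.1 in place of 0.2, 168 genes met the criteria, 18 of the 60 members among them, and 44 genes met the mirrored criteria. Leaving out each library gave 367 to 810 genes (398 with all) and 100 to 220 for the mirror (107), the extremes of the first coming without replicate 1 of young and replicate 2 of old DMSO fish. Of the 60 members, 45 to 60 met the criteria without 1 library, 56 with TMM and 46 with at least 10 CPM. All 60 met them when any old rotenone library was left out. That eases the demand for no overlap and does not touch the tolerance limits, so this end of the range is in effect built in. Members called for rotenone at 27 weeks (14) were 39 with DESeq2, 3 when only the 10 libraries compared were fitted, and 6 to 20 without 1 library. Over all genes, the fit of 10 libraries called 8 higher and 13 lower of 19032. Without replicate 1 of old DMSO fish, where 20 members were called, it was 142 and 124 of 19538. Without replicate 4 of old rotenone fish, where 6 were called, it was 7 and 20 of 19542. Calls for age in DMSO were 0 to 2 without 1 library (2 without replicate 1, 1 without replicate 5, both of old DMSO fish). Over all genes these fits called 1399 higher and 2388 lower, and 2035 higher and 2596 lower. Calls for the difference between ages were 0 to 2 without 1 library, and 10 with DESeq2. The median correlation ran from 0.175 to 0.316 without 1 library at 9 weeks and from 0.0521 to 0.138 at 27 weeks. The 4 printed genes kept their direction in every alternative. They were chosen for large differences without overlap at 27 weeks, so this was largely fixed in advance and is no sign of stability. The printed genes had at least 49 counts in every library. The causes were not tested.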
